A study of Mus musculus with 22 samples.

Results

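The Cdx genes of the mouse are Cdx1, Cdx2 and Cdx4. They were found by gene symbol and make up 3 of the 55141 genes in the count tables. Their RNA was measured in 22 RNA-seq libraries of cultures derived from mouse embryonic stem (mES) cells. Wild-type cells and Hox-/- cells, which lack the function of all Hox genes, were sequenced as undifferentiated mES cells kept with LIF, the GSK-3 inhibitor CHIR99021 and a MEK inhibitor (2 libraries per genotype). They were also sequenced after an adherent endoderm differentiation with Activin A and CHIR99021, collected at 120 h (3 per genotype). Gastruloids, which are stem cell aggregates that model parts of the early embryo, were made with Activin A from both genotypes and with Chiron, a name for CHIR99021, from wild type alone. Each gastruloid group was collected at 96 h and at 120 h, with 2 libraries per group. The labels do not give the number of clones per genotype, so the loss of Hox function and the cell line that carries it cannot be told apart.

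Cdx proteins are homeodomain transcription factors of the caudal family. They act in the posterior embryo, where Wnt, FGF and retinoic acid signals are known to activate the genes and where the proteins in turn activate central and posterior Hox genes and keep the body axis extending. Cdx2 is also needed in the trophectoderm of the blastocyst and for the identity of the intestinal epithelium, Cdx1 is a known target of Wnt and retinoic acid signalling, and Cdx4 is X-linked.

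In the mm10 build, Cdx2 (ENSMUSG00000029646) lies on the minus strand of chromosome 5, from 147300805 to 147307270. Cdx4 (ENSMUSG00000031326) lies on the plus strand of chromosome X, from 103321398 to 103330592. Both have 3 exons, and 0 annotated genes overlap them. Promoters are shown for the Cdx genes with an entry in the RefSeq promoter table, Cdx2 and Cdx4. Each sequence gives the 250 bases before the start annotated by RefSeq (GRCm38.p6), written 5′ to 3′ on the gene's own strand. The Cdx2 sequence covers chr5:147307250-147307499 on the minus strand and the Cdx4 sequence chrX:103321148-103321397 on the plus strand. Capitals mark a POU octamer and a CCAAT box, on either strand.
Cdx2: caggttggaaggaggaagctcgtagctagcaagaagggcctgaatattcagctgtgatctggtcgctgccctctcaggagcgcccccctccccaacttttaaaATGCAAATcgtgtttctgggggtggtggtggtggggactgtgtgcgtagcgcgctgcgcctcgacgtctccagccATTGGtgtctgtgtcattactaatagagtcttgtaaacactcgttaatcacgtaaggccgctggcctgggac
Cdx4: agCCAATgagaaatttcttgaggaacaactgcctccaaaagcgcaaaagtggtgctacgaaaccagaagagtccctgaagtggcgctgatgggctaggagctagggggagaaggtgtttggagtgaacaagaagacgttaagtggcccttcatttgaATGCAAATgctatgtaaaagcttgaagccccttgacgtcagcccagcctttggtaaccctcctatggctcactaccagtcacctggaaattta

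The octamer ATGCAAAT, which POU factors such as the pluripotency factor Pou5f1 can bind, occurred 1 time in each promoter. It stood 147 to 140 bases before the start of Cdx2, given as positions -147 to -140, and at -93 to -86 of Cdx4. On both strands it was present in 1.60% of 32851 promoters of the same length. The octamer was searched for after the sequences had been seen. CCAAT, searched on both strands, occurred 1 time in each, at -72 to -68 of Cdx2 and at -248 to -244 of Cdx4, and in 33.8% of all promoters. The TCF/LEF cores CTTTGA (13.8% of promoters) and CTTTGT (16.5%), the Cdx core TTTATG (10.8%) and the nuclear receptor site AGGTCA (14.0%) were searched on both strands and had 0 matches in these 2 windows. The TCF/LEF forms differ only in their last base, and a match is a description of the letters alone.

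Library totals ran from 9.11 to 28.8 M (mega) counts, and time and depth went together in the gastruloids. Levels of 1 gene are given in CPM, counts scaled by the library total. As a check of the labels, the summed level of 39 Hox genes in mES cells was 33.1 ± 3.77 CPM for wild type and 0.896 ± 0.634 CPM for Hox-/- (SD, n = 2 each). It was lower in every Hox-/- group than in its wild-type counterpart. All 10 pluripotency markers of a fixed list were at 5 CPM or more in mES cells of both genotypes. Of 10 definitive endoderm markers, 9 reached that level in wild-type and 7 in Hox-/- endoderm cultures. That list was Sox17, Foxa2, Foxa1, Gata6, Gata4, Cxcr4, Cer1, Epcam, Cldn6 and Trh, chosen with earlier results of these data known. The labels do not say whether replicates came from separate cultures, so p-values measure only the spread between these libraries. In bulk RNA, a change in the number of cells of a type and a change in RNA per cell cannot be told apart.

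The 3 genes had different profiles over the 10 groups. Cdx1 (ENSMUSG00000024619), on the minus strand of chromosome 18 from 61018862 to 61036199 (mm10), has 3 exons and 0 overlapping annotated genes. Cdx1 was highest in the 96 h gastruloids and lowest in endoderm cultures. It measured 24.8 and 26.7 CPM in wild-type mES cells and 25.8 and 24.3 CPM in Hox-/- mES cells. In endoderm cultures it measured 4.14, 4.35 and 4.45 CPM in wild-type libraries and 9.89, 7.69 and 7.69 CPM in Hox-/-. Every endoderm library was below every mES library. In Activin A gastruloids at 96 h it measured 209.9 and 184 CPM in wild-type libraries and 557 and 601 CPM in Hox-/-. At 120 h the values were 13.4 and 10.8 CPM in wild-type libraries and 137 and 146 CPM in Hox-/-. Wild-type Chiron gastruloids held 369 and 425 CPM at 96 h and 27.8 and 32.4 CPM at 120 h. Ordered by mean level, from Hox-/- Activin A gastruloids at 96 h down to wild-type endoderm, neighbouring groups overlapped only between the mES genotypes.

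Cdx2 was low in mES cells and high in all differentiated cultures. It measured 2.39 and 2.64 CPM in wild-type mES cells, from 36 and 34 counts, and 0.448 and 0.420 CPM in Hox-/- mES cells, from 6 and 5 counts. Wild-type endoderm cultures held 94.3, 94.1 and 108 CPM, and Hox-/- endoderm cultures 218, 197 and 207 CPM. Every Hox-/- endoderm library was above every wild-type one. In Activin A gastruloids at 96 h Cdx2 measured 248 and 243 CPM in wild-type libraries and 302 and 321 CPM in Hox-/-. At 120 h it measured 88.9 and 91.2 CPM in wild-type libraries and 143 and 135 CPM in Hox-/-. Chiron gastruloids held 359 and 426 CPM at 96 h and 215.5 and 233 CPM at 120 h. In the order of group means, the only neighbours whose libraries overlapped were Chiron gastruloids at 120 h and Hox-/- endoderm.

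Cdx4 was almost absent from mES cells and highest in Chiron gastruloids. It had 3 and 4 counts in the wild-type mES libraries (0.199 and 0.311 CPM) and 5 and 9 counts in the Hox-/- ones (0.374 and 0.756 CPM). Endoderm cultures held 5.76, 6.60 and 4.38 CPM in wild-type libraries and 30.1, 31.3 and 26.3 CPM in Hox-/-. Wild-type Activin A gastruloids held 2.27 and 1.51 CPM at 96 h and 3.24 and 3.73 CPM at 120 h. Outside mES cells these were the lowest Cdx4 levels in the series. Hox-/- Activin A gastruloids held 7.57 and 7.89 CPM at 96 h and 15.8 and 20.4 CPM at 120 h. Chiron gastruloids held 107 and 110.2 CPM at 96 h and 75.0 and 88.0 CPM at 120 h. In the order of group means, 0 neighbouring groups of Cdx4 overlapped, although the mES groups rest on 3 to 9 counts a library. From counting error alone, 95% intervals of the pooled mES levels were 0.101 to 0.516 CPM in wild type and 0.303 to 0.929 CPM in Hox-/-, which overlap. The share of all genes whose groups separate like those of Cdx1, Cdx2 and Cdx4 was not counted.

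**Figure D1:**
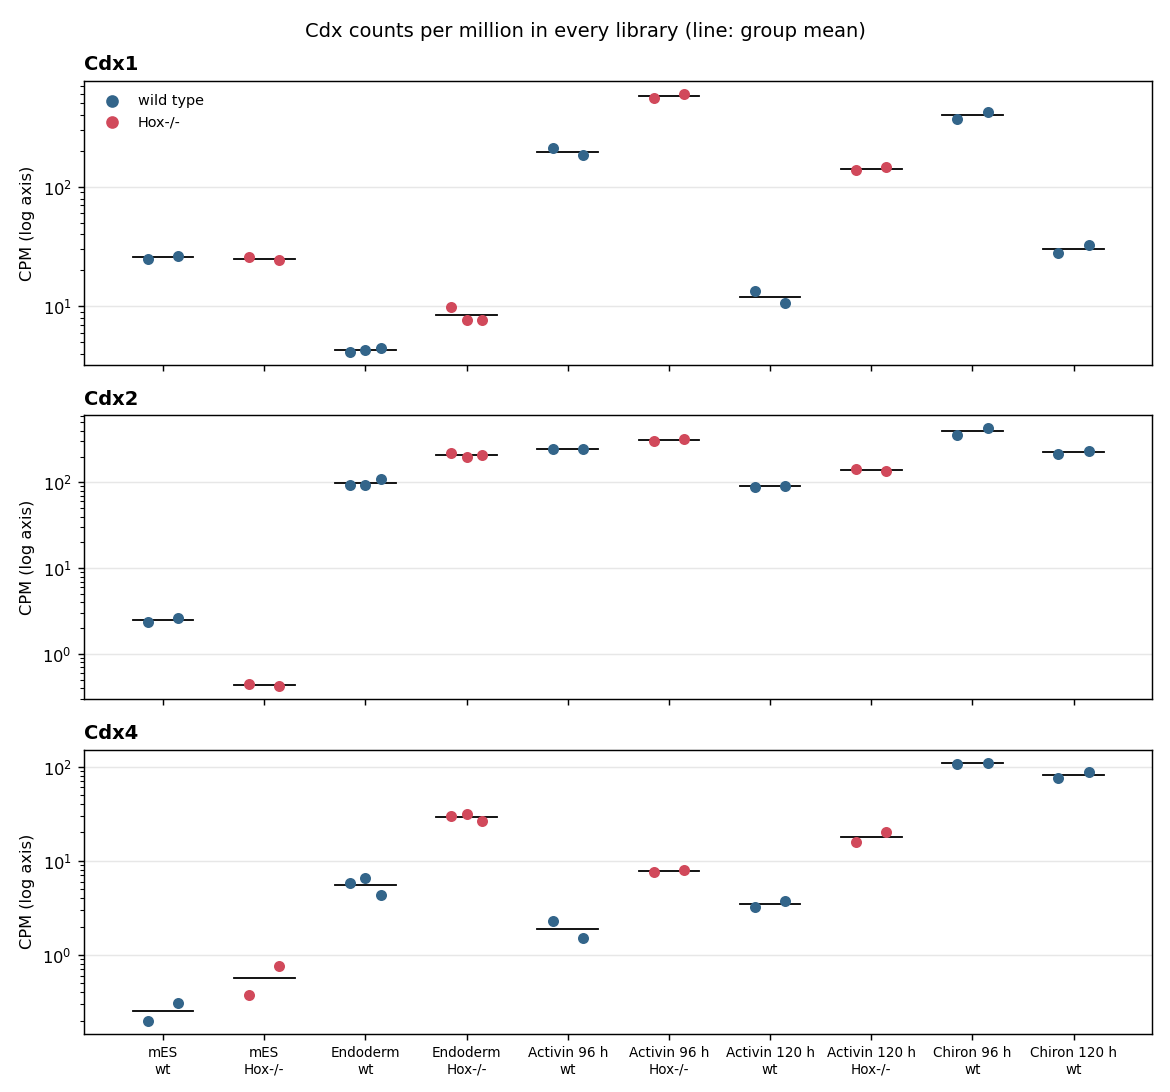
Level of Cdx1, Cdx2 and Cdx4 in each of the 22 libraries, in CPM on a log axis, by group; points are libraries and lines are group means. Hox-/- libraries sit above wild type for all 3 genes in endoderm and Activin A gastruloids, and Cdx4 reaches 107 CPM or more only in Chiron gastruloids at 96 h.

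The mixture of Cdx RNA was compared on the deposited FPKM scale, which divides by transcript length. The summed level of the 3 genes was 16.0 ± 0.889 FPKM in wild-type and 14.8 ± 0.243 FPKM in Hox-/- mES cells (SD, n = 2 each). It was 48.3 ± 3.10 FPKM in wild-type and 108 ± 5.38 FPKM in Hox-/- endoderm (SD, n = 3 each). In Activin A gastruloids the sum was 211 ± 11.8 FPKM in wild type and 440 ± 22.7 FPKM in Hox-/- at 96 h (SD, n = 2 each). At 120 h it was 43.4 ± 0.0836 FPKM in wild type and 141 ± 2.93 FPKM in Hox-/- (SD, n = 2 each). The 2 genotypes did not overlap in any of these 4 cultures. Chiron gastruloids, which are wild type, summed to 437 ± 43.6 FPKM at 96 h and 143 ± 10.2 FPKM at 120 h (SD, n = 2 each). Their libraries, at 406.6 and 468.2 FPKM, spanned the 424 and 456 FPKM of Hox-/- Activin A gastruloids at 96 h. At 120 h the Chiron libraries, at 135.6 and 150.1 FPKM, likewise spanned the 139 and 144 FPKM of Hox-/- Activin A gastruloids. The sums are given as a description and were not tested.

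The shares of the 3 genes within that sum differed between cultures. In mES cells Cdx1 made up 92.7% of the Cdx FPKM in wild type and 97.4% in Hox-/-. In endoderm Cdx2 made up 89.3% in wild type and 82.9% in Hox-/-, and Cdx4 5.63% and 12.7%. Wild-type Activin A gastruloids went from 50.3% Cdx1 and 49.2% Cdx2 at 96 h to 14.4% Cdx1 and 82.1% Cdx2 at 120 h. Hox-/- Activin A gastruloids held 69.6% Cdx1 at 96 h and still 53.6% at 120 h. Cdx4 took 11.9% of the sum in Chiron gastruloids at 96 h and 25.3% at 120 h, against 0.429% and 3.58% in wild-type Activin A gastruloids. The sums of Hox-/- Activin A and Chiron gastruloids thus overlapped while their composition differed, with Cdx4 at 0.797% and 5.80% in the Hox-/- aggregates. The shares, too, were not tested.

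**Figure D2:**
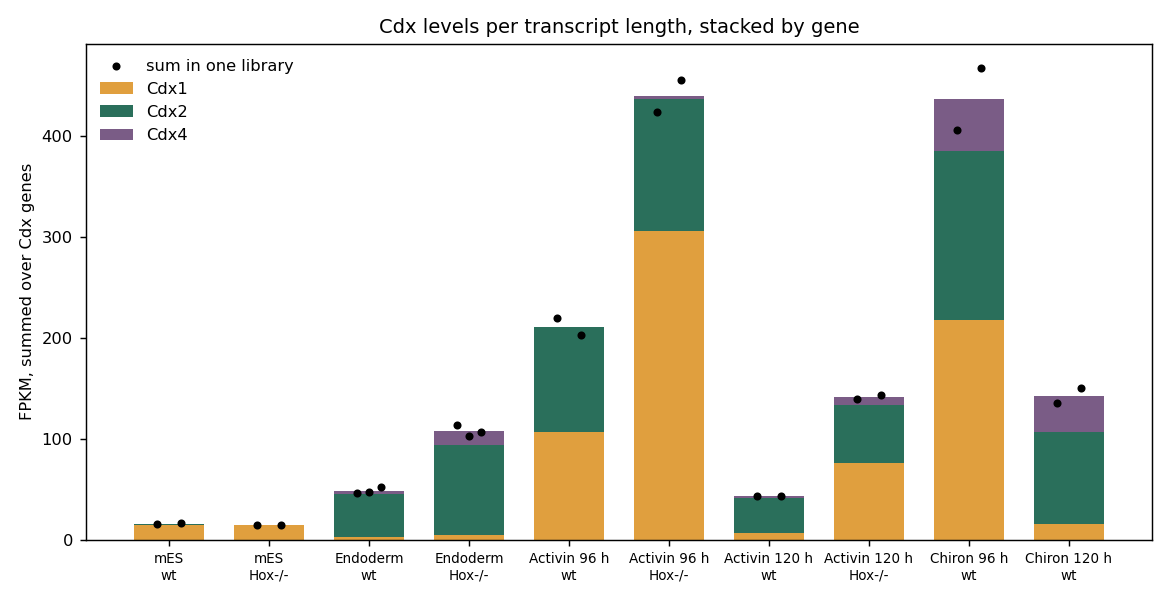
Mean FPKM of Cdx1, Cdx2 and Cdx4 stacked in each of the 10 groups, so that the bar height is their summed level in FPKM on a linear axis from 0; points are the sums in single libraries. Cdx1 fills most of the bar in mES cells and Cdx2 most of it in endoderm, and Hox-/- Activin A bars reach the height of the Chiron bars with little Cdx4.

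The genotype comparisons set Hox-/- cultures against wild-type cultures, a difference that also holds the cell line. In mES cells the Hox-/- libraries held 5.68-fold less Cdx2 RNA than wild type, and Cdx1 did not pass the test. For Cdx2 the log2 fold change, Hox-/- over wild type throughout, was -2.50 (SE 0.400, adjusted p = 1.07e-05). Cdx2 entered the test only through its wild-type counts. For Cdx1 it was -0.04, with a 95% interval of -0.22 to 0.15 (adjusted p = 0.818). Cdx4 was under the filter on low counts, and without the filter its log2 fold change was 1.10 (adjusted p = 0.416). A gene is called where its adjusted p is under 0.05, and 1 of the 2 Cdx genes tested was called, as lower, where 23.2% of all genes tested were called and 10.8% were lower. On FPKM values Cdx2 kept its direction but missed the threshold with limma, at -0.81 on log2(FPKM + 1) (adjusted p = 0.103).

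In endoderm cultures all 3 Cdx genes were higher in Hox-/-. The comparison called 46.2% of genes tested, and 23.1% of genes tested were higher. Cdx4 rose most, 5.25-fold (log2 fold change 2.39, SE 0.122, adjusted p = 1.91e-09). Cdx2 rose 2.11-fold (1.08, SE 0.0633, adjusted p = 8.07e-09). Cdx1 rose 1.96-fold from a low level (0.97, SE 0.146, adjusted p = 8.86e-05). For each gene the 3 Hox-/- libraries lay above the 3 wild-type libraries. The share of all genes that separate in this way was not counted. Marker lists of several cell types moved in the same cultures. Of 10 definitive endoderm markers, 10 were called lower, and their summed level was 696 to 730 CPM in wild-type libraries and 235 to 249.7 CPM in Hox-/-. In mES cells the same list already summed to 274 to 286 CPM in wild type and 121 to 127 CPM in Hox-/-. There 1 of its 5 tested genes was called lower. Of 10 pluripotency markers, 10 were lower, with sums of 915 to 1054 CPM for wild type and 300.0 to 313 CPM for Hox-/-. Of 10 extraembryonic endoderm markers, 7 of 8 tested were lower, with sums of 748 to 827 CPM for wild type and 390.4 to 460.2 CPM for Hox-/-. All markers of these 3 lists had counts in both genotypes. The part of these differences in the Cdx values was not tested.

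In Activin A gastruloids all 3 genes were higher in Hox-/- at both times. At 96 h, where 38.9% of genes tested were called and 22.2% were higher, Cdx4 rose 4.27-fold (log2 fold change 2.10, SE 0.181, adjusted p = 7.57e-14). Cdx1 rose 3.05-fold (1.61, SE 0.0442, adjusted p = 1.10e-33) and Cdx2 1.32-fold (0.40, SE 0.0381, adjusted p = 2.38e-12). At 120 h, where 50.4% were called and 24.9% were higher, Cdx1 rose 12.6-fold (3.66, SE 0.0911, adjusted p = 1.00e-35). Cdx4 rose 5.57-fold (2.48, SE 0.185, adjusted p = 2.92e-16) and Cdx2 1.67-fold (0.74, SE 0.0533, adjusted p = 8.65e-17). On log2(FPKM + 1), which understates changes of low genes, the Cdx4 difference was 1.24 at 96 h and 1.84 at 120 h, and both kept the call. No library of one genotype overlapped the other for any of the 3 genes, with 2 libraries per group. The share of all genes without such overlap was not counted.

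Marker genes of other cell types moved with these gastruloid results. Of 10 definitive endoderm markers, 9 were called lower at 96 h and 8 at 120 h, beside 38.9% and 50.4% of all genes called in either direction. Their summed level ran from 1206 to 1397 CPM in wild-type libraries and 230 to 234 CPM in Hox-/- at 96 h, and from 1569 to 1617 CPM and 216 to 226 CPM at 120 h. Of 10 presomitic and somitic mesoderm markers, 3 were called higher and 3 lower at 96 h, with sums of 212 to 226 CPM in wild-type libraries and 287 to 311 CPM in Hox-/-. At 120 h 9 of them were called higher, and the sums were 586 to 597 CPM and 1530.0 to 1536 CPM. Of 10 pluripotency markers, 8 were lower and 1 higher at 96 h, with sums of 1660 to 1681 CPM for wild type and 1161 to 1166 CPM for Hox-/-. At 120 h 6 were lower and 2 higher, with sums of 99.4 to 101 CPM for wild type and 39.5 to 39.9 CPM for Hox-/-. All markers of these 3 lists had counts in every gastruloid group. Of the neural list, 7 of 9 tested were lower and 1 higher at 120 h, with mean sums of 108 CPM for wild type and 34.9 CPM for Hox-/-. Of the cardiac list 5 of 8 tested were lower and 1 higher at 120 h (sums of 21.19 to 24.97 CPM and 13.5 to 14.4 CPM), and of the endothelial and blood list 4 of 7 were higher and 0 lower (48.9 to 53.8 CPM and 74.6 to 77.6 CPM). At 96 h 4 of 9 neural markers tested were higher and 2 lower, 1 of 8 cardiac markers was lower, and 2 of 7 endothelial and blood markers were lower. Of the extraembryonic endoderm list, 1 of 10 was lower at 96 h, and 6 were lower and 2 higher at 120 h. Its sums were 118.6 to 119.0 CPM in wild type and 59.4 to 62.6 CPM in Hox-/- at 96 h. At 120 h the sum was higher in Hox-/-, at 327.4 to 334.0 CPM against 270.6 to 274.7 CPM. Afp and Ttr of that list had 0 counts in Hox-/- at 120 h, and Hbb-bh1 of the blood list had 0 counts in all 4 Activin A groups. Of 8 trophoblast markers, Prl3d1 and Tpbpa had 0 counts in all 10 groups, and the list summed to at most 31.6 CPM in any library. The part of these cell types in the Cdx levels was not tested.

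**Figure D3:**
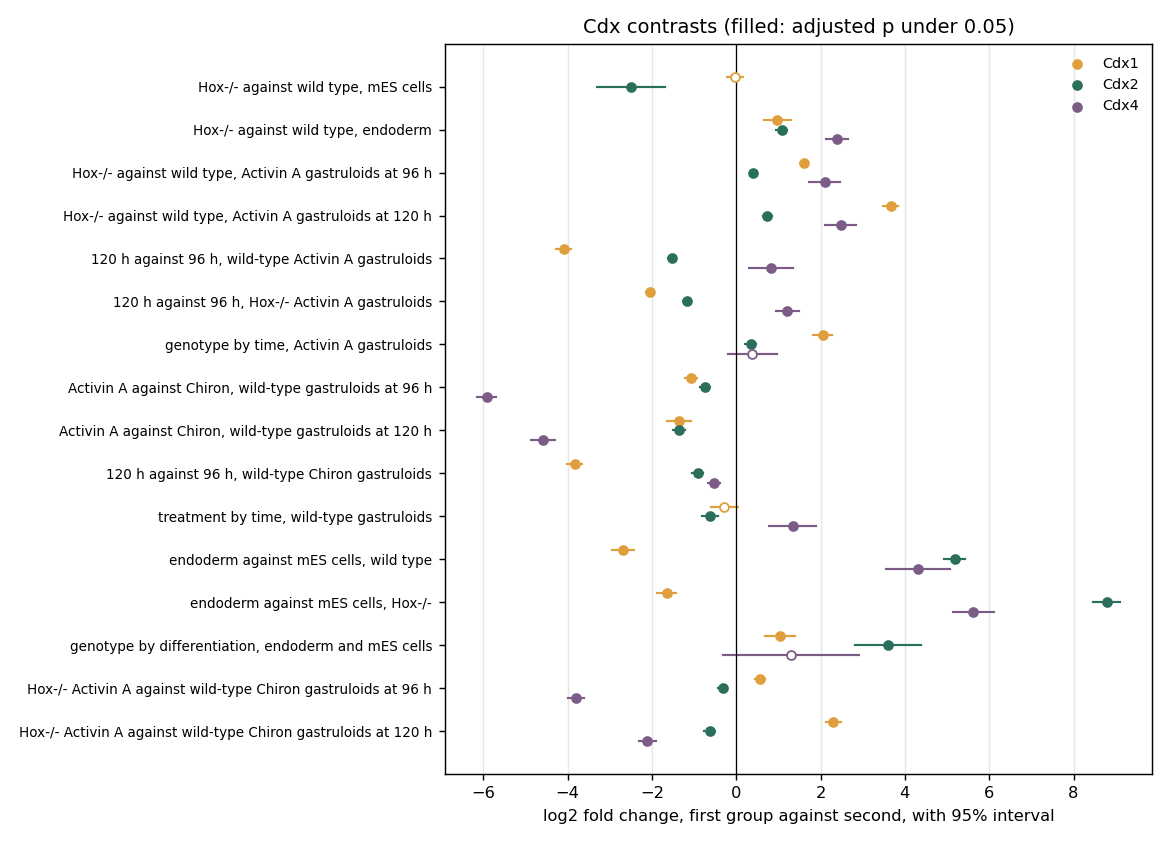
Log2 fold change of Cdx1, Cdx2 and Cdx4 in each of the 16 contrasts, with lines for the 95% interval; filled points are called. Cdx1 has its widest genotype difference in Activin A gastruloids at 120 h (3.66) and Cdx4 its widest treatment difference at 96 h (-5.92).

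With time, Cdx1 and Cdx2 fell and Cdx4 rose in Activin A gastruloids of both genotypes. In wild type, where 74.9% of genes tested were called between 96 h and 120 h, Cdx1 fell by 4.10 on the log2 scale (SE 0.0838, adjusted p = 6.51e-40) and Cdx2 by 1.52 (SE 0.0478, adjusted p = 7.41e-32). Cdx4 rose by 0.82 (SE 0.261, adjusted p = 0.00426). That call rests on single libraries: it was 0.54 without the second wild-type library of 96 h (adjusted p = 0.0815) and 0.73 without the second of 120 h (adjusted p = 0.0518). On log2(FPKM + 1) it was 0.42 (adjusted p = 0.0903). In Hox-/-, where 72.4% were called, Cdx1 fell by 2.05 (SE 0.0490, adjusted p = 3.57e-37) and Cdx2 by 1.18 (SE 0.0433, adjusted p = 3.95e-29). Cdx4 rose by 1.21 (SE 0.134, adjusted p = 3.75e-11).

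Marker lists were counted over the same interval, beside 74.9% of all genes tested called in wild type and 72.4% in Hox-/-. In wild-type Activin A gastruloids 7 of 10 presomitic and somitic markers rose and 3 fell, with a mean sum of 219 CPM at 96 h and 591 CPM at 120 h, and in Hox-/- 8 rose and 1 fell, with 299 and 1533 CPM. Of 10 pluripotency markers 8 fell and 1 rose in wild type (1671 and 100.3 CPM), and 7 fell and 2 rose in Hox-/- (1164 and 39.7 CPM). Of 9 neural markers tested 6 rose and 1 fell in wild type (51.3 and 108 CPM), and 2 rose and 2 fell in Hox-/- (52.8 and 34.9 CPM). Of 10 definitive endoderm markers 3 rose and 5 fell in wild type (1301 and 1593 CPM), and 5 rose and 4 fell in Hox-/- (232 and 221 CPM). The part of these lists in the change of the Cdx genes with time was not tested.

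The difference between the genotypes' time courses was tested as an interaction, which called 38.9% of genes tested. The fall of Cdx1 was smaller in Hox-/- by 2.05 (SE 0.111, adjusted p = 5.62e-21). The fall of Cdx2 was smaller by 0.34 (SE 0.0657, adjusted p = 3.43e-05). For Cdx4 the difference was 0.38, with a 95% interval of -0.20 to 0.97 (adjusted p = 0.317), and did not pass. At 120 h the wild-type libraries stood at 13.4 and 10.8 CPM of Cdx1 while the Hox-/- libraries stood at 137 and 146 CPM.

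The comparison of Activin A with Chiron in wild type asks how the inducing treatment sets these levels. All 3 Cdx genes were lower with Activin A at both times. At 96 h, where 61.6% of genes tested were called and 30.2% were lower, Cdx4 was 60.7-fold lower (log2 fold change -5.92, SE 0.111, adjusted p = 1.19e-22). Cdx1 was 2.11-fold lower (-1.07, SE 0.0648, adjusted p = 7.48e-13) and Cdx2 1.67-fold lower (-0.74, SE 0.0582, adjusted p = 9.67e-11). At 120 h, where 41.9% were called and 21.6% were lower, Cdx4 was 24.1-fold lower (-4.59, SE 0.136, adjusted p = 4.53e-18). Cdx1 and Cdx2 were each 2.57-fold lower (log2 fold changes -1.36 and -1.36, adjusted p = 2.75e-08 and 1.23e-13). On log2(FPKM + 1) the Cdx4 difference was -4.79 at 96 h and -3.86 at 120 h, both still called. The libraries of the 2 treatments did not overlap for any Cdx gene at either time. How many of all genes showed no overlap was not counted.

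Marker lists were counted between the treatments as well, beside 61.6% of all genes tested called at 96 h and 41.9% at 120 h. Of 10 presomitic and somitic markers, 10 were lower with Activin A at 96 h and 9 at 120 h, and 0 were higher. Their sums were 212 to 226 CPM with Activin A and 1650 to 1911 CPM with Chiron at 96 h, and 586 to 597 CPM and 1166 to 1203 CPM at 120 h. Of 10 definitive endoderm markers, 9 were higher and 1 lower at 96 h, and 10 were higher at 120 h. Their sums were 1206 to 1397 CPM with Activin A and 309 to 314 CPM with Chiron at 96 h, and 1569 to 1617 CPM and 167 to 168 CPM at 120 h. Of 10 pluripotency markers, 4 were higher and 4 lower at 96 h, and 1 was higher and 8 lower at 120 h. Their mean sums were 1671 CPM with Activin A and 384 CPM with Chiron at 96 h, and 100.3 and 319 CPM at 120 h. All markers of these 3 lists had counts in every gastruloid group. The part of these lists in the Cdx differences, that of Cdx4 included, was not tested.

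Within Chiron gastruloids all 3 genes fell between 96 h and 120 h, in a comparison that called 61.7% of genes tested. Cdx1 fell by 3.83 on the log2 scale (SE 0.0851, adjusted p = 1.20e-20), Cdx2 by 0.92 (SE 0.0606, adjusted p = 6.26e-12) and Cdx4 by 0.53 (SE 0.0703, adjusted p = 7.20e-07). Over this interval 4 of 10 presomitic and somitic markers rose and 6 fell, and 0 of 10 definitive endoderm markers rose and 6 fell. Cdx4 missed the threshold with limma on log2(FPKM + 0.1), at -0.52 (adjusted p = 0.0512). The interaction of treatment with time called 39.6% of genes tested. For Cdx2 it was -0.62 (SE 0.0909, adjusted p = 7.78e-06), a steeper fall with Activin A. For Cdx4 it was 1.33 (SE 0.265, adjusted p = 2.90e-04), since Cdx4 rose with Activin A and fell with Chiron. For Cdx1 it was -0.28, with a 95% interval of -0.61 to 0.04 (adjusted p = 0.157). The Cdx1 difference passed the threshold without the second Activin A library of 96 h, at -0.39, and without the second Chiron library of 96 h, at -0.40.

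Hox-/- Activin A gastruloids were also set against wild-type Chiron gastruloids, which differ in genotype, treatment and cell line at once. At 96 h, where 62.4% of genes tested were called, Cdx1 was 1.47-fold higher in the Hox-/- aggregates (log2 fold change 0.55, SE 0.0598, adjusted p = 2.34e-09). Cdx2 was 1.25-fold lower (-0.33, SE 0.0558, adjusted p = 8.72e-06) and Cdx4 14.0-fold lower (-3.81, SE 0.0951, adjusted p = 6.36e-25). At 120 h, where 43.7% were called, Cdx1 was 4.93-fold higher (2.30, SE 0.0889, adjusted p = 1.62e-19). Cdx2 was 1.54-fold lower (-0.63, SE 0.0638, adjusted p = 1.63e-09) and Cdx4 4.32-fold lower (-2.11, SE 0.0977, adjusted p = 1.68e-17). Cdx1 was thus above its Chiron level, and Cdx2 and Cdx4 below theirs, at both times.

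Between mES cells and endoderm cultures, Cdx1 fell and Cdx2 and Cdx4 rose in both genotypes. In wild type, where 79.9% of genes tested were called, Cdx2 was 36.2-fold higher in endoderm (log2 fold change 5.18, SE 0.121, adjusted p = 1.55e-18). Cdx4 was higher by 4.32 on the log2 scale, with a 95% interval of 3.56 to 5.08, against mES libraries of 3 and 4 counts. Cdx1 was 6.44-fold lower (-2.69, SE 0.124, adjusted p = 5.80e-14). In Hox-/-, where 80.6% were called, Cdx2 was higher by 8.79 (SE 0.155, adjusted p = 1.49e-20), against mES libraries of 6 and 5 counts. Cdx4 was higher by 5.62 (SE 0.231) and Cdx1 lower, at -1.65 (SE 0.110). Of 10 pluripotency markers 10 fell in each genotype, and of 10 definitive endoderm markers 9 rose and 1 fell in wild type and 8 rose and 1 fell in Hox-/-. The interaction of genotype with differentiation called 24.1% of genes tested. It was 3.61 for Cdx2 (SE 0.374, adjusted p = 6.77e-07) and 1.04 for Cdx1 (SE 0.171, adjusted p = 1.65e-04). For Cdx4 it was 1.30, with a 95% interval of -0.30 to 2.91 (adjusted p = 0.239).

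Genes that lie near a Cdx gene were examined within 500 kb of its start. Around Cdx1, 10 of 11 neighbours tested were called higher and 0 lower in Hox-/- mES cells, where Cdx1 itself stood at -0.04. Their median log2 fold change was 0.63, against 0.00061 over all genes tested, of which 12.4% were called higher, and 0.04 over the 347 tested genes of chromosome 18. In endoderm 7 of 13 were higher and 1 lower (median 0.37), where 23.1% of all genes were higher. At 96 h 11 of 14 were higher and 1 lower (median 0.63), where 22.2% of all genes were higher. At 120 h 9 of 14 were higher and 0 lower (median 0.76), where 24.9% of all genes were higher. Cdx1 rose further than every tested neighbour in the gastruloids, and 2 of 13 neighbours stood higher than Cdx1 in endoderm. Pdgfrb, a PDGF receptor beside Cdx1, was singled out after its values were seen. It was higher in all 4 genotype comparisons, at 0.77 in mES cells, 1.37 in endoderm, and 1.22 and 0.90 in gastruloids at 96 h and 120 h. Its mean level in mES cells was 8.05 CPM for wild type and 13.7 CPM for Hox-/-. Between Activin A and Chiron, both wild type, the median over 14 neighbours was -0.05 at 96 h and 0.10 at 120 h. The part of the region in the Cdx1 difference between the cell lines was not tested.

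Around Cdx2 the neighbours' medians lay between -0.06 and 0.04 in the 4 genotype comparisons, and around Cdx4 between -0.31 and 0.24. Single neighbours of Cdx2 ran more widely, from -1.76 to 3.73 in endoderm, -4.30 to 0.64 at 96 h and -3.15 to 1.33 at 120 h. Flt1, singled out after its values were seen, was lower in Hox-/- where Cdx2 was higher. Its means for wild type and Hox-/- were 82.0 and 24.0 CPM in endoderm. In Activin A gastruloids they were 84.2 and 4.09 CPM at 96 h, and 56.0 and 5.82 CPM at 120 h. The gene Urad, an enzyme of uric acid breakdown next to Cdx2, is described by its levels alone, since it was singled out after its values were seen and was near the floor in some groups. It measured 0.162 to 0.584 CPM in wild-type endoderm and 4.09 to 5.11 CPM in Hox-/- endoderm. In gastruloids its mean was 0.285 CPM in wild-type Activin A, 0.394 CPM in Hox-/- Activin A and 4.05 CPM in Chiron aggregates at 96 h. At 120 h these means were 1.03, 2.43 and 4.44 CPM. Chic1, the gene beside Cdx4 and also singled out after its values were seen, was higher in Hox-/- endoderm (0.76) and in Hox-/- gastruloids at 96 h (0.59), and stood at 0.20 at 120 h (adjusted p = 0.110). It was lower with Activin A than with Chiron, at -1.51 and -0.95.

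**Figure D4:**
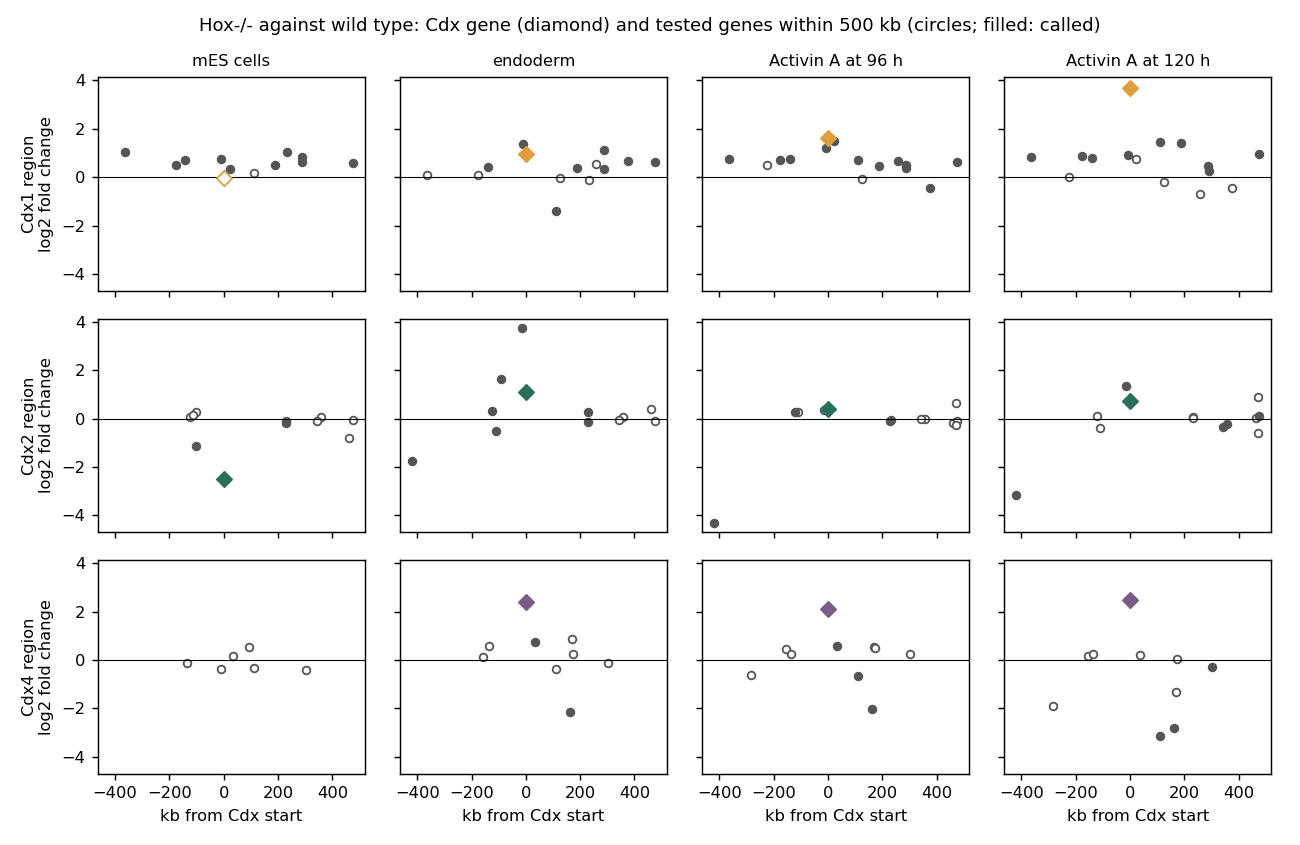
Log2 fold change, Hox-/- over wild type, of tested genes within 500 kb of each Cdx gene against their distance from its start, for the 4 genotype comparisons. Most genes around Cdx1 lie above 0 in each comparison, with medians of 0.37 to 0.76.

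Genes of Wnt, FGF and retinoic acid signalling were counted in lists chosen with earlier results of these data known. The part of these signals in the Cdx levels was not tested. Of all genes tested, 23.2% were called in Hox-/- mES cells, 46.2% in endoderm, and 38.9% and 50.4% in Activin A gastruloids at 96 h and 120 h, and 61.6% and 41.9% between Activin A and Chiron at those times. Of 15 Wnt genes of the caudal growth zone, 8 were tested in mES cells, where 0 rose and 4 fell in Hox-/- (median -0.55, against 0.00061 for all genes). Axin2, a feedback inhibitor and Wnt target, fell by 0.76 and Sp5, a Wnt target factor, by 1.88. In endoderm 9 of 15 rose and 4 fell (median 0.48, against 0.0017), with the antagonists Nkd1 at 1.49 and Notum at 1.22, the ligand Wnt5b at 1.21, and the receptor Lgr5 at -2.11. In gastruloids 8 of 15 rose and 4 fell at 96 h (median 0.23, against 0.03), and 11 rose and 3 fell at 120 h (median 0.98, against -0.02). At 120 h the Wnt effector Lef1 rose by 2.38 and Axin2 by 1.88, while the antagonist Dkk1 fell by 3.30. Between Activin A and Chiron 5 rose and 9 fell at 96 h (median -0.51), and 4 rose and 9 fell at 120 h (median -0.20). Lef1 stood at -1.76 at 96 h and Axin2 at -1.15 at 120 h.

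The FGF and retinoic acid counts stand beside the same shares of all genes called, which are 23.2% in mES cells, 46.2% in endoderm, 38.9% at 96 h and 50.4% at 120 h for genotype, and 61.6% and 41.9% for treatment. Of 12 FGF genes, 1 rose and 4 fell among the 10 tested in Hox-/- mES cells (median -0.11), with the feedback inhibitor Spry4 at -2.92. In endoderm 3 of 11 rose and 6 fell (median -0.18), with the ligand Fgf17 at 1.83 and the ligand Fgf4 at -3.09. At 96 h 6 of 12 rose and 2 fell (median 0.07), and at 120 h 6 rose and 3 fell (median 0.23), with Fgf17 at 1.64 and the receptor Fgfr1 at 1.38. Between Activin A and Chiron 3 rose and 7 fell at 96 h, and 4 rose and 4 fell at 120 h. Of 11 retinoic acid genes, 1 of 7 rose and 1 fell in mES cells, where 12.4% of all genes were higher and 10.8% lower, and 3 of 9 rose and 4 fell in endoderm. In Activin A gastruloids 2 of 10 rose and 6 fell at 96 h (median -0.29), and 3 rose and 6 fell at 120 h (median -0.81). The degrading enzyme Cyp26a1 fell by 2.00 at 96 h and by 1.82 at 120 h. The synthesising enzyme Aldh1a2 stood at -1.55 at 96 h and 1.27 at 120 h, so its difference changed sign with time. Between Activin A and Chiron 0 of 10 rose and 9 fell at 96 h, and 6 rose and 3 fell at 120 h.

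Of 14 caudal progenitor factors, 7 of 12 rose and 4 fell in Hox-/- endoderm (median 0.32, beside 46.2% of all genes called), with the homeobox gene Evx1 at 1.53 and Sox2 at -1.53. In Hox-/- gastruloids 7 of 14 rose and 5 fell at 96 h (median 0.51, beside 38.9% called), and 8 rose and 3 fell at 120 h (median 0.16, beside 50.4%). At 96 h Evx1 was at 0.99 and the progenitor factor Nkx1-2 at 0.77. At 120 h the mesoderm factors Tbx6 and Msgn1 were at 2.65 and 2.61, and the mesoderm and notochord factor T at -0.78. T was called higher in Hox-/- endoderm (0.45) and at 96 h (0.35), so its difference changed sign between cultures. In mES cells 1 of 7 rose and 3 fell, beside 23.2% called, with T at -1.51. Between Activin A and Chiron 4 of 14 rose and 10 fell at both times, beside 61.6% and 41.9% called, with Tbx6 at -3.32 and T at 1.64 at 96 h.

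Lists for the other tissues in which Cdx2 acts were counted in the same way. Of 15 intestinal epithelium genes, 6 were tested in endoderm, where 0 rose and 5 fell in Hox-/- (median -1.21, beside 46.2% of all genes called), with the gut transcription factor Hnf4a at -2.76 and the cell surface antigen Gpa33 at -2.62. In gastruloids 7 were tested, of which 0 rose and 2 fell at 96 h, beside 38.9% called, and 1 rose and 5 fell at 120 h (median -2.01), beside 50.4% called. Of 15 trophectoderm genes, 1 of 13 rose and 8 fell in endoderm (median -0.50), 2 of 14 rose and 6 fell at 96 h, and 1 of 14 rose and 7 fell at 120 h (median -0.77). Of all genes tested, 46.2%, 38.9% and 50.4% were called in these 3 comparisons. The keratin Krt18, a simple epithelial gene also made outside the trophectoderm, fell by 4.93 at 120 h. The other ParaHox genes Gsx1, Gsx2 and Pdx1 were under the filter in all 4 genotype comparisons.

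**Figure D5:**
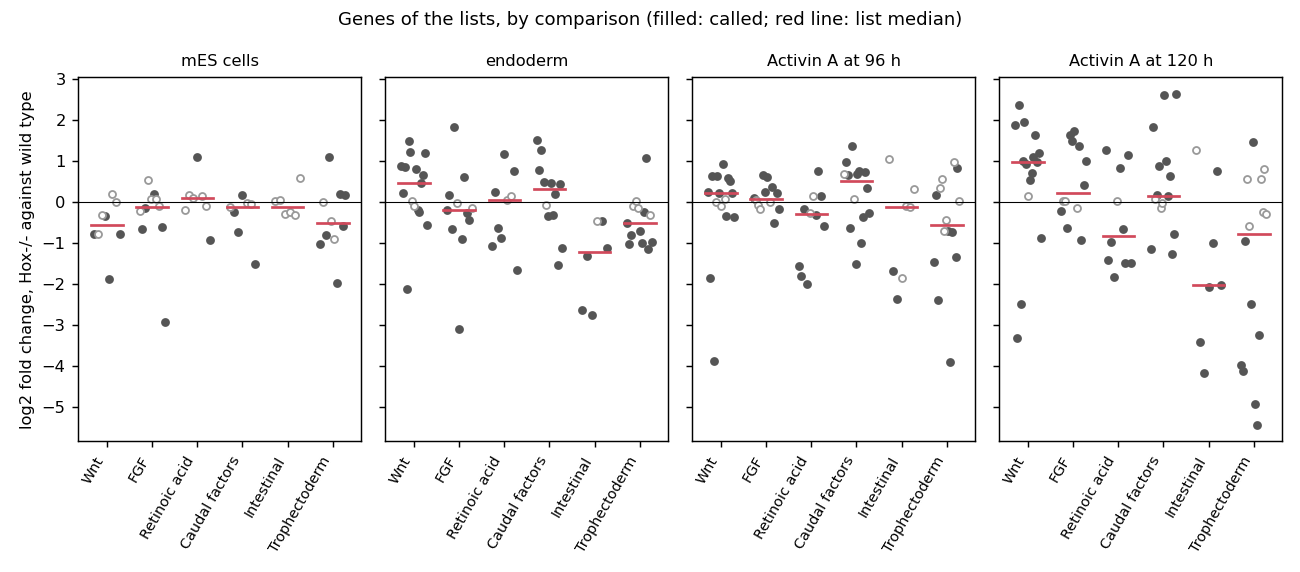
Log2 fold change, Hox-/- over wild type, of each tested gene of 6 gene lists in the 4 genotype comparisons; filled points are called and red lines are list medians. The Wnt list has its median at -0.55 in mES cells and at 0.98 in gastruloids at 120 h.

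Profiles over the 10 groups were compared by Pearson's r of log2(CPM + 1) group means, among 13272 genes with at least 5 CPM in some group. The groups share libraries' depth and culture conditions, and r is given as a description. Cdx2 and Cdx4 had an r of 0.72, Cdx1 and Cdx2 of 0.37, and Cdx1 and Cdx4 of 0.23. By r with Cdx2, Cdx4 ranked 2837 among these genes. By r with Cdx1, Cdx2 ranked 3196 and Cdx4 4495. The genes most like Cdx1 were Calm3, Ndc1, Cnot9, Me2 and Hnrnpk, with Calm3 at 0.97. Those most like Cdx2 were Bloc1s6, Ube2j1, Cdh2, Fjx1 and Chst7, with Bloc1s6 at 0.99. Those most like Cdx4 were Slc39a9, Suv39h2, Pitrm1, Rcbtb1 and Cbx5, with Slc39a9 at 0.92. A high r does not mean a change of similar size. Group means of Calm3 ran from 232 to 374 CPM, beside 4.31 to 579 CPM for Cdx1. Those of Slc39a9 ran from 45.0 to 61.7 CPM, beside 0.255 to 109 CPM for Cdx4. Cdh2 changed more, from 5.58 to 282 CPM, beside 0.434 to 393 CPM for Cdx2. None of the Cdx genes was among the 5 most like another.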

How the data were processed

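Per the labels' protocols, poly(A) RNA was turned into stranded libraries. Cutadapt 1.16, STAR and Cufflinks 2.2.1 are named in the submitters' processing notes, with the mm10 build. The roles of these tools, and whether counting used strand, are not given in the sources used here. The authors deposited a table of counts, 1 whole number per Ensembl gene and library, and a table of FPKM values, which are scaled by transcript length and library total. Symbols and positions come from the FPKM tables. The 4 wild-type Activin A gastruloid libraries stand in both gastruloid tables with 0 differing counts.

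Tests on the counts used edgeR 4.0.16 (R 4.3.3): filterByExpr, TMM scaling, 1 coefficient per group, the quasi-likelihood test and Benjamini-Hochberg adjustment over all genes tested, with 16 contrasts and 47 Cdx tests. Separate fits covered mES cells and endoderm, 1 fit covered the 4 groups of a gastruloid table, and joint fits gave the comparisons across tables. SE is the size of the log2 fold change divided by the square root of F, and the 95% intervals use the fit's degrees of freedom. A floor of 3 counts per library bounds detection and covers counting error only. The named genes are the Cdx genes, the 5 genes most like each, and up to 3 called genes per list and direction with the smallest p, of which a part is printed, with neighbours within 500 kb. Pdgfrb, Flt1, Urad and Chic1 were singled out among the neighbours after their values were seen. The Cdx genes, the lists and the comparisons were chosen with earlier results of these data known. Symbols were matched to RefSeq promoters for Cdx2 and Cdx4, 2 of the 3.

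The alternatives were RLE factors, total-count scaling, a filter left out or set to 10 counts in all libraries, DESeq2 1.42.0, limma 3.58.1 on log2(FPKM + 1) and log2(FPKM + 0.1) with a minimum FPKM of 1, a replicate block, removal of the 39 Hox genes, fits of only the groups compared, and each library left out. On simulated counts with 200 changed genes, 95% to 100% of the 2-fold changes were recovered over the 16 contrasts. Of the calls, 3.85% to 8.41% were false (simulated gene numbers 13414 to 16326). The data called far more than 200 genes, with 3168 in the genotype comparison of mES cells, and recovery was not split by level. The rates therefore cannot be carried over to low Cdx levels. These include Cdx2 and Cdx4 in mES cells and Cdx4 in wild-type Activin A gastruloids.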

Additional observations from a re-analysis of the deposited data

Results flagged for a closer look

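For 6 Cdx results the difference between effects was itself tested, as an interaction contrast with edgeR, and passed. Cdx4 did not pass for genotype by time or genotype by differentiation, and Cdx1 did not pass for treatment by time. Of all genes tested, 38.9% were called for genotype by time, 24.1% for genotype by differentiation and 39.6% for treatment by time. The genotype difference of Cdx1 was larger at 120 h than at 96 h in Activin A gastruloids by 2.05 on the log2 scale, and larger in endoderm than in mES cells by 1.04. For Cdx2 the genotype difference was larger at 120 h by 0.34. It changed sign between mES cells (-2.50) and endoderm (1.08), and this interaction was 3.61. The Hox-/- mES libraries held 6 and 5 counts of Cdx2. With limma the mES difference missed the threshold (adjusted p = 0.103 and 0.136). The Activin A against Chiron difference changed between 96 h and 120 h by -0.62 for Cdx2 and by 1.33 for Cdx4.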

How the results depend on the processing

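Counted over each Cdx test and each alternative run for it, 651 values kept direction and side of the threshold, 6 lost the call, 2 gained it and 2 changed sign. With each library left out, Cdx1 in mES cells, never called, ran from -0.092 to 0.0054, Cdx4 over time in wild-type Activin A gastruloids from 0.54 to 1.12, and the Cdx1 treatment by time interaction from -0.44 to -0.13. A group of 2 then keeps 1 library, assumed to vary like the others. With limma, Cdx2 in mES cells was -0.81 on log2(FPKM + 1) and -2.07 on log2(FPKM + 0.1) (adjusted p = 0.103 and 0.136), Cdx4 over time was 0.42 in wild-type Activin A gastruloids on log2(FPKM + 1), and -0.52 in Chiron gastruloids on log2(FPKM + 0.1). The cause was not tested. Of the 5 genes most like each Cdx gene, the shared number was 2 for Cdx1 on FPKM, 2 for Cdx2 at CPM + 0.1 and 1 on FPKM, and 2 and 2 for Cdx4. Counts of called genes moved too: in mES cells 3168 became 944 with DESeq2, 23 and 354 with limma, and 1477 and 1690 without either wild-type library, and at 96 h 6546 became 3195 with DESeq2 and 2665 and 2777 with limma. For endoderm 6922 became 4469, for Activin A against Chiron at 96 h 10655 became 6692, and for genotype by time 6544 became 4145 to 4263. Replicate numbers do not pair the libraries (correlations of deviations from -0.070 to 0.131). With the replicate block, Cdx2 in mES cells was -2.51, and 0 Cdx calls changed. FPKM fits were not made across tables, and a fit of only the groups compared is not possible for interactions.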
